A study of Arabidopsis thaliana with 25 samples.

Results

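A set of 9 loci of the Arabidopsis thaliana Polycomb system was examined for summits of 4 transcript elongation factors: EMF1 (AT5G11530), CLF (AT2G23380), SWN (AT4G02020), EMF2 (AT5G51230), VRN2 (AT4G16845), FIE (AT3G20740), MSI1 (AT5G58230), LHP1 (AT5G17690, listed as TFL2 with LHP1 as a synonym) and VRN1 (AT3G18990). They are 9 of 27444 nuclear protein-coding genes, and each was taken by its locus identifier with 500 bp on either side. The set was chosen by a measured value, the high SPT16 score of EMF1 over S2P, together with the known pathway of its product, so the values below are a description of these lists and carry no test. All libraries came from whole Col-0 seedlings grown with 16 h of light at 21 °C and 8 h of darkness at 18 °C, and their age is not stated in the labels. Chromatin immunoprecipitation with sequencing (ChIP-seq) was done with antibodies to SPT5 (4 libraries), ELF7 (4), SSRP1 (4), SPT16 (4), RNA polymerase II (RNAPII) phosphorylated at serine 2 of its carboxy-terminal domain (S2P, 2) and at serine 5 (S5P, 2), beside 5 input libraries. The protocols name heat at 44 °C for 10 min for every sample alike, so no heated and unheated groups could be formed. In chromatin from whole seedlings, fewer cells with a factor at a gene and less of the factor per cell cannot be told apart.

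Polycomb repressive complex 2 (PRC2) places a repressive methyl mark on histone H3. In plants its catalytic subunit is CLF or SWN, its zinc finger subunit EMF2 or VRN2, and its WD40-repeat subunits are FIE and MSI1. LHP1 reads the mark through a chromodomain, EMF1 is a plant-specific protein that acts in repression together with PRC1 and PRC2, and VRN1 is a B3-domain DNA-binding protein needed for lasting repression of the flowering repressor gene FLC after cold. VRN1 is thus a partner of the pathway rather than a Polycomb subunit. Of the proteins mapped, SPT5 pairs with SPT4 on elongating RNAPII, ELF7 is part of the PAF1 complex, and the histone chaperone FACT is made of SSRP1 with SPT16. RNAPII carries S5P early in transcription and S2P during productive elongation.

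The deposited data were 8 summit lists, each holding the peaks of 1 factor over 1 RNAPII form, with 30216 summits in all. A summit over S2P or S5P was read as a place where the factor exceeded that RNAPII form, which is an assumption. Lists of 1 factor had 17.1% to 54.8% of the summits of the shorter list at identical bases. Lists that shared an RNAPII form but not the factor had no more than 0.857%. Identical bases within a factor may be built in, if its 2 lists come from the same factor libraries. Different factors could still lie close without sharing a base. In genes with both, the median gap of the strongest SSRP1 and SPT16 summits over S2P was 83.5 bp. It was 41.0 bp for SPT5 and SPT16 over S5P. The shares cannot show how the RNAPII form was used. The files do not state the control. The score is the authors' −log10 of the q-value, with a floor at a q-value of 0.01, and is used here only within its own list. The lists hold no value per library, so no value below has a replicate error, and depth is unknown. On this reading the 2 lists of a factor share the libraries of that factor, and the lists over 1 form share the RNAPII libraries. The gene table gives no strand, so a gene end may be the start or the end of transcription. Ends are named here by their lower or higher coordinate.

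Summits lay in or within 500 bp of 5 of the 9 genes, which is 55.6% of them, against 36.8% of all protein-coding genes with a summit in any list. EMF1 and VRN1 were in 4 lists each, VRN2 in 3, and EMF2 and MSI1 in 1. The PRC2 methyltransferase genes CLF and SWN, the WD40 gene FIE and the reader gene LHP1 were in none. The 15 summits found stood at 12 distinct bases, 7 of them summits inside a gene and 8 beside it. The farthest summits still inside the window were 310 and 327 bp from VRN2. In lists with no summit at the gene, the nearest ones left out were 576 and 1000 bp from VRN1 and 1088 bp from SWN. Further summits of lists that already had one at the gene were not measured.

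**Figure D1:**
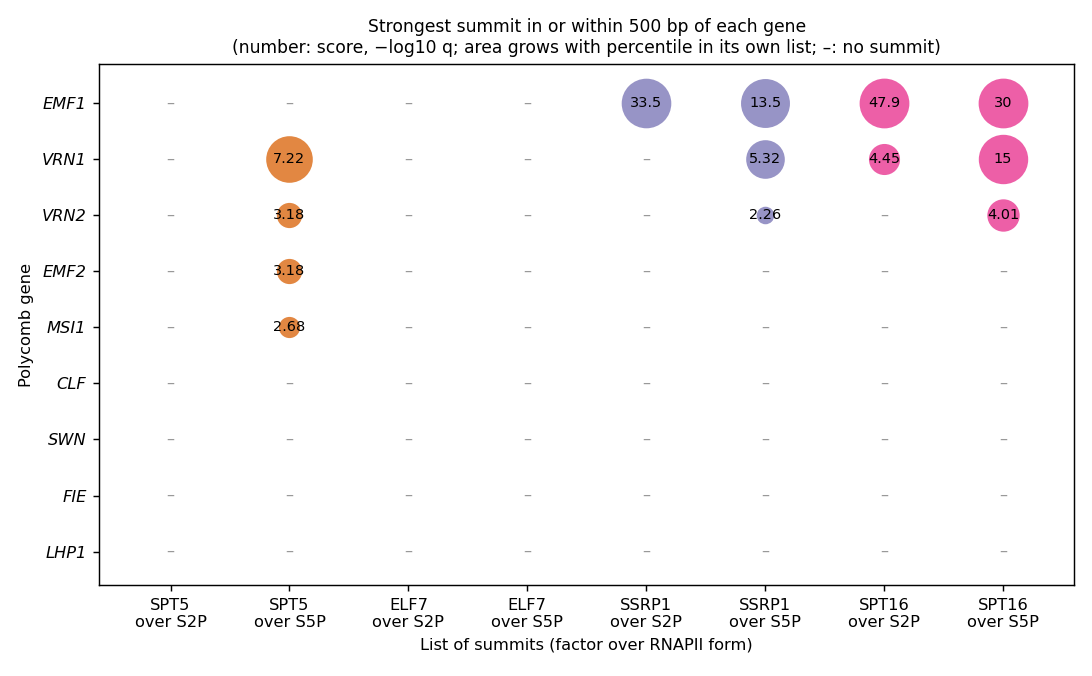
Strongest summit of each of the 9 genes (rows) in each list (columns, factor over RNAPII form); the number is the score (−log10 q), the circle area grows with the percentile in that list, and a dash means no summit. EMF1 has circles in the 4 FACT lists alone, with scores from 13.5 to 47.9, and the ELF7 columns and SPT5 over S2P are empty.

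List by list, SPT5 over S5P reached 4 of 9 members (VRN1, VRN2, EMF2 and MSI1), where the background was 15.6% of protein-coding genes, and the count was 1 with summits inside genes only. SSRP1 over S2P reached EMF1 alone (background 19.1%), and SSRP1 over S5P reached EMF1, VRN1 and VRN2 (background 14.4%). SPT16 over S2P reached EMF1 and VRN1 (background 21.0%), and SPT16 over S5P reached EMF1, VRN1 and VRN2 (background 24.2%). SPT5 over S2P reached 0 of 9 members (background 1.05%), as did ELF7 over S2P (8.54%) and ELF7 over S5P (2.08%). With so few genes, 1 member is 11.1% of the set, so a difference of a few genes from the background cannot be read as a result about the set. This holds for the 4 members of SPT5 over S5P as well, of which assignment to the nearest gene left 3. The members are long, at 2234 to 6001 bp with a median of 3929 bp against 2078 bp for all genes. Among the 11494 genes within that range of lengths the background was higher in every list except SPT5 over S2P. It was 20.4% for SPT5 over S5P, 21.6% and 16.9% for SSRP1 over S2P and S5P, and 24.1% and 28.8% for SPT16. The share of genes with a summit in any list is not given for that range, so the 36.8% above is not matched for length.

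EMF1 carried some of the strongest FACT summits in the genome. SPT16 scored 47.9 over S2P at chr5:3696110 (TAIR10), the fourth highest of 6578 summits, and 30.0 over S5P at the same base, the fifth highest of 7394. SSRP1 scored 33.5 over S2P at chr5:3696069, rank 37 of 5451, and 13.5 over S5P at that base, rank 157 of 4199. SPT5 and ELF7 had no summit at EMF1 over either form. The nearest summit in the SPT5 and ELF7 lists was 6933 bp away, for ELF7 over S2P. The distance to the next FACT summit outside the window was not determined.

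All EMF1 summits lay just inside the lower-coordinate end of the 5758 bp gene. The SPT16 summit was 318 bp and the SSRP1 summit 277 bp from that end, at 5.52% and 4.81% of the gene's length, and no further summit was listed along the rest of the gene. The subunits stood 41 bp apart, over S2P and, since each subunit gave the same base in its 2 lists, over S5P as well. The median gap between the strongest SSRP1 and SPT16 summits was 83.5 bp over S2P (4736 genes) and 73.0 bp over S5P (3550 genes). Distances of 200 to 400 bp from an end were common for FACT: 33.5% of the strongest SSRP1 summits inside genes over S2P and 29.2% of those of SPT16 over S2P fell there. A lone summit was common too, in 75.5% of 261 genes of at least 5000 bp for SSRP1 over S2P and 60.8% of 314 for SPT16 over S2P. That both lists of a subunit gave 1 base at EMF1 was the usual case, seen in 64.8% of the genes shared by the SSRP1 lists and 52.4% of those shared by the SPT16 lists.

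**Figure D2:**
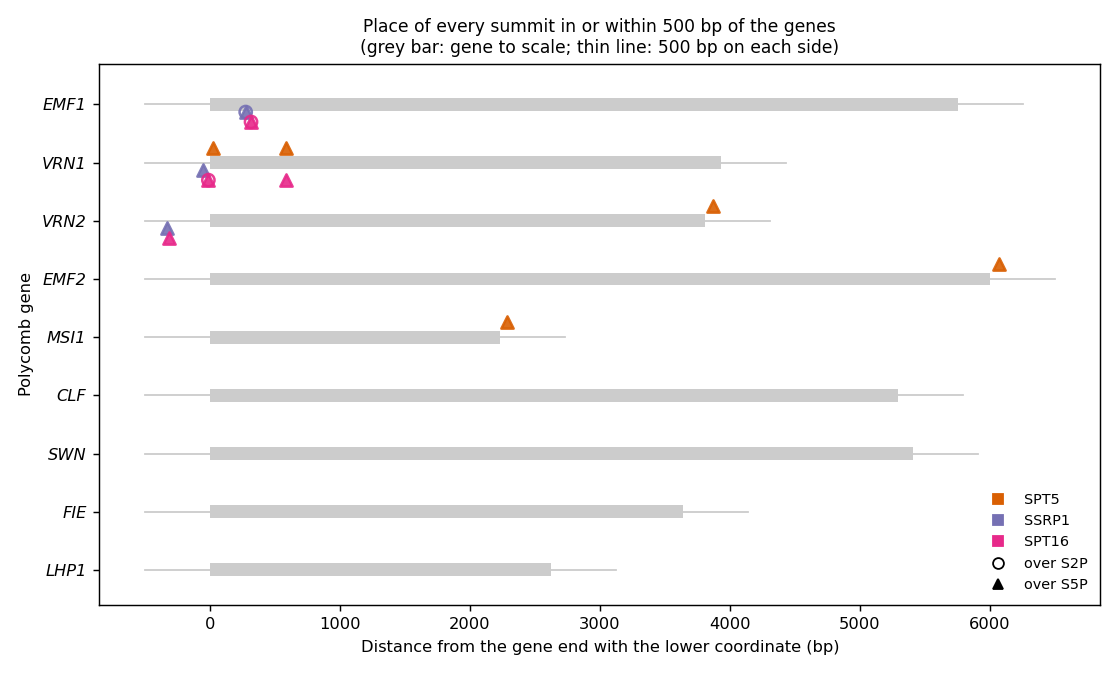
Place of all 15 summits along the 9 genes, drawn to scale as distance in bp from the lower-coordinate gene end (grey bar, gene; thin line, 500 bp on each side; colour, factor; open circle, over S2P; filled triangle, over S5P). EMF1 summits sit 277 and 318 bp inside 1 end, VRN1 summits fall in a group at the end and a group 585 to 588 bp inside, and the SPT5 summits of VRN2, EMF2 and MSI1 lie 51 to 72 bp beyond the higher-coordinate end.

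Most genes with the highest SPT16 scores had an ELF7 summit over S2P, and EMF1 had none. Of the 20 genes with the highest SPT16 scores over S2P, 18 had an ELF7 summit over S2P, and the 2 without were AT2G31590 and EMF1. Among the 100 highest, 90 had one. Of the 20 highest over S5P for SPT16, 15 had an ELF7 summit over S2P, and EMF1 was again among the 5 without. For SSRP1, 16 of the 20 highest over S2P and 13 of the 20 highest over S5P had an ELF7 summit over S2P. EMF1 was not among these, at ranks 39 and 161 of the genes. The pattern itself was frequent: of 3055 genes in all 4 FACT lists, 51.9% had an ELF7 summit over S2P, while 1045 genes (34.2%, or 3.81% of all protein-coding genes) had no SPT5 or ELF7 summit in any list. Among those 1045 genes EMF1 ranked 2 for SPT16 over S2P, 3 for SPT16 over S5P, 5 for SSRP1 over S2P and 21 for SSRP1 over S5P. A missing summit means that none passed the authors' threshold in that list, not that the factor was absent.

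**Figure D3:**
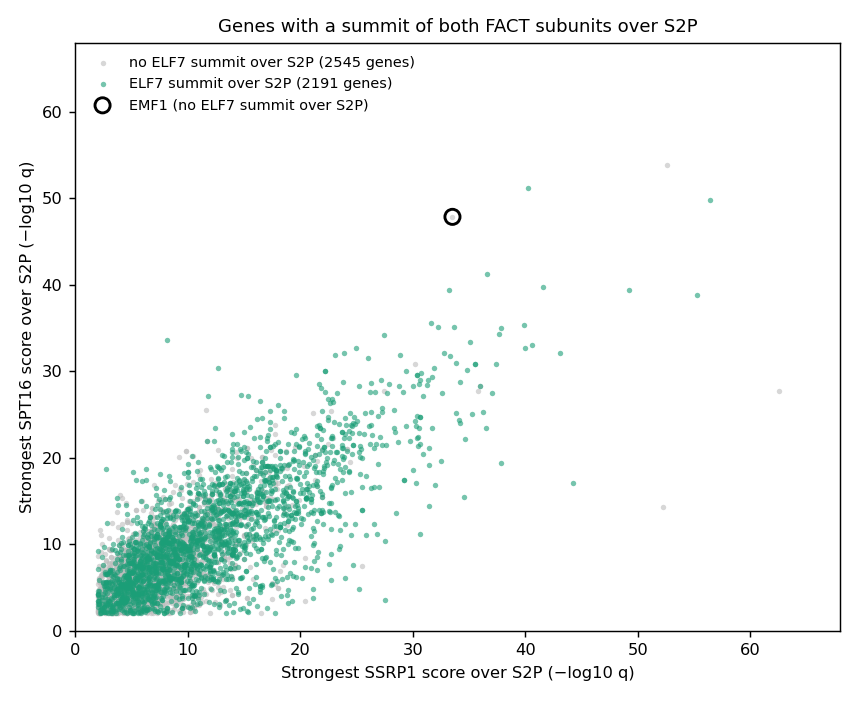
Strongest SPT16 score over S2P (y axis, −log10 q) against strongest SSRP1 score over S2P (x axis) in the 4736 genes with both, coloured by whether the gene has an ELF7 summit over S2P (46.3% do). EMF1 (black ring, 33.5 and 47.9) has none. Of the other 3 genes at or above it on both axes, 2 have one.

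The 5 genes nearest to EMF1 in their within-list score percentiles over the 8 lists were AT5G43020, AT1G62520, AT2G31590, AT1G74929 and AT1G30590, with root mean square differences of 1.25 to 1.85 percentile points. AT5G43020 scored 30.2 for SSRP1 over S2P, 29.6 for SSRP1 over S5P, 30.9 for SPT16 over S2P and 30.0 for SPT16 over S5P. AT2G31590 scored 52.6, 60.7, 53.8 and 61.5 in the same order of lists. The place differed between these genes, from 234 to 283 bp from the nearest end in AT2G31590 to 1188 and 1189 bp in AT5G43020. AT1G30590, at 5138 bp the nearest of them to EMF1 in length, held its summits 411 to 418 bp from an end. At AT1G74929, a 102 bp gene model, the summits lay outside the gene. AT1G74930 had the same scores over S2P, 36.0 for SSRP1 and 28.3 for SPT16, and it had an ELF7 summit over S2P. AT1G74929 is nevertheless counted among the 1045 genes without SPT5 or ELF7, and stands above EMF1 there for SSRP1 over S2P.

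**Figure D4:**
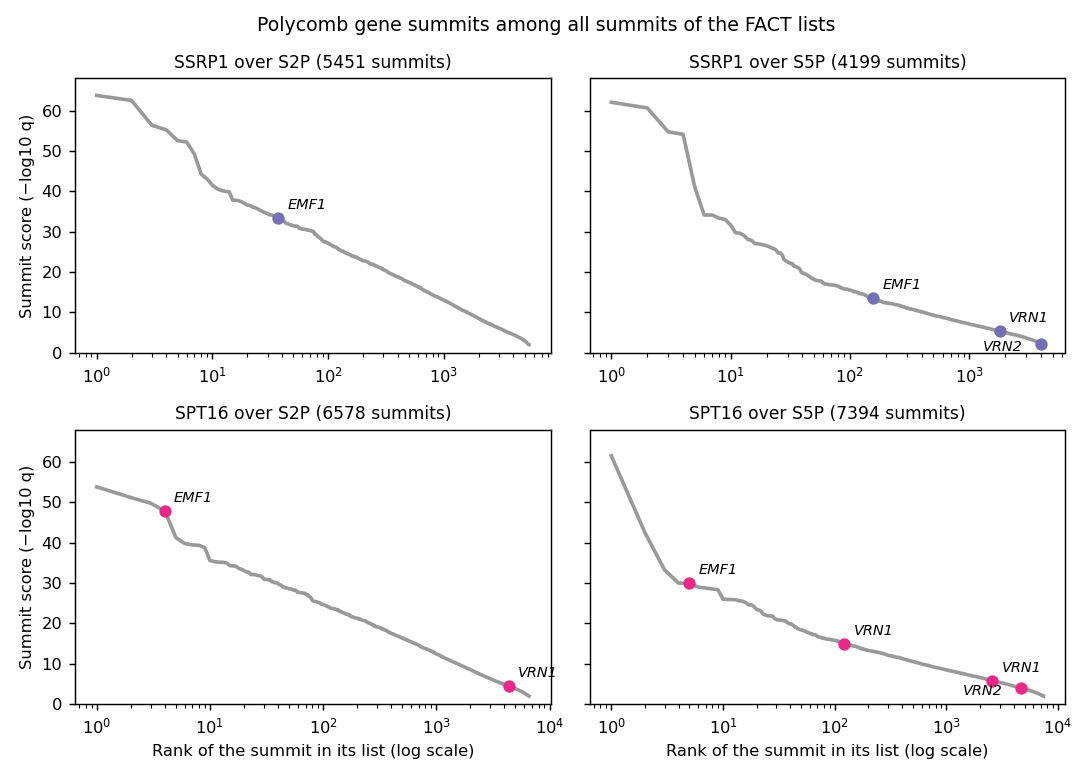
Score (y axis, −log10 q) of every summit against its rank (x axis, log scale) in each FACT list (grey line), with the summits of the 9 genes as points. EMF1 lies at ranks 4 and 5 in the SPT16 lists and 37 and 157 in the SSRP1 lists, VRN1 reaches rank 122 for SPT16 over S5P, and VRN2 lies in the lower part of its lists.

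VRN1 showed a pattern centred on S5P. SPT16 scored 4.45 over S2P at chr3:6548117, rank 4354 of 6578, and 15.0 over S5P at the same base, rank 122 of 7394. That base lies 10 bp beyond the lower-coordinate end of VRN1. SPT5 over S5P scored 7.06 at chr3:6548150, 23 bp inside that end, and SSRP1 over S5P scored 5.32 at chr3:6548075, 52 bp beyond it. A further pair stood inside the gene, with SPT5 over S5P at 7.22 (chr3:6548715, 588 bp from the end) and SPT16 over S5P at 5.81 (chr3:6548712, 585 bp).

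The SPT5 and SPT16 summits over S5P at VRN1 thus matched in place, 33 bp apart at the end and 3 bp apart inside the gene, with 565 bp between the SPT5 summits. An SPT16 summit over S5P was found within 50 bp for 37.7% of all 2916 SPT5 summits over S5P. On the reading used here, both lists rest on the S5P libraries. Of 4292 genes reached by SPT5 over S5P, 170 (3.96%) had at least 2 of its summits. That share is not matched for length, and VRN1 is longer than 87.5% of protein-coding genes.

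The end summits of VRN1 are shared with its neighbour. The gap to ETP1, a gene for an F-box protein of ethylene signalling, is 34 bp, so the SPT16 base lies 25 bp from ETP1 and the SSRP1 base over S5P lies inside ETP1. ETP1 had further summits of its own, with scores of 13.1 for SSRP1 and 15.2 for SPT16 over S2P and 4.2 for ELF7 over S2P. Which of the neighbours the end summits belong to was not tested. The pair 585 and 588 bp inside VRN1 lay within 500 bp of no other protein-coding gene.

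The genes nearest to VRN1 by the same measure of percentiles were GAUT1, MAP70-1, AT1G30814, AT1G04480 and AT1G28140, at 3.24 to 7.57 percentile points. GAUT1, a pectin galacturonosyltransferase gene, scored 6.89 for SPT5 over S5P, 5.84 for SSRP1 over S5P, 4.65 for SPT16 over S2P and 10.4 for SPT16 over S5P. The same 4 lists held VRN1.

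VRN2 and EMF2, the zinc finger subunit genes of PRC2, each had a low-scoring SPT5 summit over S5P beyond the higher-coordinate end. In VRN2 it scored 3.18 at chr4:9479938, 60 bp beyond the end and 108 bp from AT4G16850. In EMF2 it also scored 3.18, at chr5:20829716, 72 bp beyond the end with no other protein-coding gene within 500 bp. Both stood at rank 2354 of 2916. At the other side of VRN2, SPT16 over S5P scored 4.01 at chr4:9475759 and SSRP1 over S5P scored 2.26 at chr4:9475742, 17 bp apart. These FACT summits were 310 and 327 bp from VRN2 but 60 and 43 bp from AT4G16840, so they lie nearer to the neighbour. EMF2 had no FACT summit.

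MSI1, which encodes a histone-binding WD40 protein of PRC2 and of the chromatin assembly factor CAF-1, had 1 SPT5 summit over S5P with a score of 2.68 (chr5:23558296, rank 2594 of 2916). It lay 51 bp beyond the higher-coordinate end and inside FHIT, which overlaps that end of MSI1. FACT summits within 500 bp of FHIT, but outside that gene and the MSI1 window, scored 6.85 and 6.03 for SSRP1 over S2P and S5P. The one of SPT16 over S2P scored 11.8. The places of the SPT5 summits at VRN2, EMF2 and MSI1 were common ones for this list: the strongest SPT5 summit over S5P lay outside the gene in 62.1% of genes reached, at a median of 84.0 bp from an end, and 54.3% of its summits were within 500 bp of at least 2 protein-coding genes. A summit in SPT5 over S5P and in no other list, as at EMF2 and MSI1, was found for 37.8% of the 4292 genes in that list, or 5.91% of all protein-coding genes.

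CLF, SWN, FIE and LHP1 had no summit in any list. The nearest summit of any list was 8689 bp from CLF, 1088 bp from SWN, 1641 bp from FIE and 14214 bp from LHP1. The summit near SWN was 1 base called for SPT5 over S2P (2.65) and over S5P (4.3). CLF and SWN, at 5295 and 5408 bp, are of nearly the same length as EMF1, and their neighbours AT2G23370, AT2G23390 and AT4G02030 had no FACT summit either.

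A wider set of Polycomb pathway genes was counted in the same way: 6 paralogues of PRC2 subunits, 8 genes of PRC1 and of readers, 20 of PRC2 recruiters and accessory proteins, 17 of Polycomb antagonists and 24 known targets of Polycomb repression. Of these 75 genes, 27 (36.0%) had a summit in at least 1 list, close to the 36.8% of all genes. None of the 75 had an ELF7 summit over S2P (background 8.54%) or S5P (2.08%), or an SPT5 summit over S2P (1.05%). SSRP1 over S2P reached 8 of 75 (10.7%, background 19.1%) and over S5P 6 (8.0%, background 14.4%). SPT16 over S2P reached 12 (16.0%, background 21.0%) and over S5P 17 (22.7%, background 24.2%). SPT5 over S5P reached 16 (21.3%, background 15.6%). With the 9 genes above, ELF7 was at 0 of 84 in both lists.

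**Figure D5:**
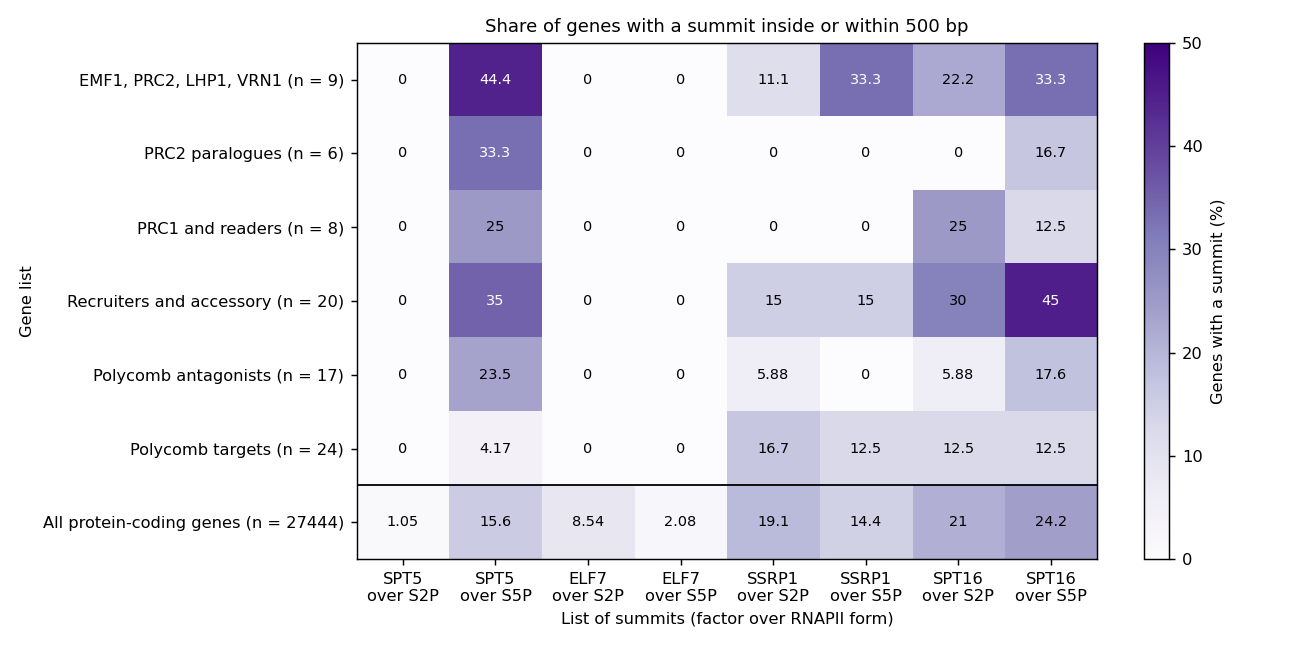
Percent of genes with a summit inside or within 500 bp (number and shade) for each Polycomb gene list (rows, with the number of genes) in each list of summits (columns), with all protein-coding genes in the bottom row. The ELF7 columns and the column of SPT5 over S2P are at 0 for every Polycomb list, against 8.54%, 2.08% and 1.05% of all genes.

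Among recruiters and accessory proteins, 13 of 20 genes (65.0%) were in at least 1 list, against 36.8% of all genes. VRN5, a PHD-finger gene of the vernalization pathway, was in 5 lists. SPT5 over S5P scored 4.1, 50 bp inside the lower-coordinate end. The FACT summits lay inside the opposite, higher-coordinate end. SSRP1 scored 4.07 over S2P and 4.01 over S5P, both 252 bp inside. SPT16 scored 4.87 over S2P and 4.99 over S5P, 338 and 336 bp inside. RTV1, the gene of a B3-domain protein related to VRN1, was in the 4 FACT lists alone, as EMF1 was, with 6.2 and 7.59 for SSRP1 over S2P and S5P and 9.32 and 11.0 for SPT16, all 686 to 695 bp from an end. VEL1, a relative of VRN5, scored 12.5 for SPT16 and 4.98 for SSRP1 over S2P, and 5.13 for SPT16 and 2.36 for SPT5 over S5P. Its summits over S2P lay nearest the higher-coordinate end and those over S5P nearest the lower-coordinate end. AT5G24500 was in 3 FACT lists with scores of 2.01 to 2.72. The other 9 genes had 1 or 2 summit lists each.

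Of the 6 PRC2 paralogues, 2 (33.3%) were in at least 1 list, against 36.8% of all genes. FVE scored 6.52 for SPT16 and 4.03 for SPT5 over S5P, 59 and 74 bp beyond an end, NFC5 (MSI5) scored 5.15 for SPT5 over S5P, and MEA, MSI2, FIS2 and MSI3 had none. Of the 8 PRC1 genes and readers, 3 (37.5%) were in at least 1 list. LIF2, which encodes a partner of LHP1, was in 3 lists (5.46 for SPT5 over S5P, 3.1 for SPT16 over S2P and 3.41 for SPT16 over S5P). EBS and SHL1, which encode readers of histone methylation, had 1 summit each at 498 and 500 bp outside the gene, and RING1A, RING1B, DRIP1, DRIP2 and AT3G23060 had none. Of 17 antagonists, 5 (29.4%) were reached, with AT5G46910 in 4 lists (10.8 for SPT16 and 5.75 for SSRP1 over S2P, 5.94 for SPT16 and 5.01 for SPT5 over S5P), the demethylase gene ELF6 in 2 (5.83 for SPT16 and 4.22 for SPT5 over S5P), and ULT1 (7.61), the gene of a SAND-domain trithorax factor, and SDG29 (3.99), a trithorax-type methyltransferase gene, in SPT5 over S5P alone. At AT5G46910 the summits over S2P lay nearest the lower-coordinate end and those over S5P nearest the higher-coordinate end. The remodeller genes BRM, SYD and PKL had no summit.

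Of the 24 target genes, 4 (16.7%, against 36.8% of all genes) had a summit, and 3 of these were in all 4 FACT lists. The flowering activator gene SOC1 (AGL20) scored 9.43 for SSRP1 and 16.3 for SPT16 over S2P, and 4.37 for SSRP1, 14.5 for SPT16 and 4.47 for SPT5 over S5P. AP1, a floral meristem identity gene, scored 6.99 and 16.9 for SSRP1 and SPT16 over S2P and 6.74 and 17.2 over S5P, all 50 to 65 bp inside an end. The seed dormancy gene DOG1 scored 6.77 and 10.1 over S2P and 4.57 and 7.37 over S5P, 972 to 976 bp from an end. KNAT6, a homeobox gene, scored 5.34 for SSRP1 over S2P alone. The other 20 targets, among them FLC, AG, STM, FT, LFY and WUS, had no summit. In all, 6 of 84 Polycomb pathway genes were in the 4 FACT lists (EMF1, VRN5, RTV1, AP1, SOC1 and DOG1), or 7.14%, against 11.1% of all protein-coding genes.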

How the data were processed

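MACS3, Bowtie2, deepTools, SAMtools 1.16.1 and Trimmomatic 0.39 were used with the genome TAIR10, per the submitters' processing notes. How MACS3 was set, which control it used and how libraries were pooled is not given in the sources used. The authors deposited 8 summit lists whose score is the −log10 of the q-value, with a floor that corresponds to a q-value of 0.01. From these lists, each summit position (counted from 1) was assigned to every protein-coding gene that held it or ended within 500 bp, with Python 3.11.15 and pandas 2.3.3. The assignment was tested on simulated data. Genes and symbols came from an NCBI RefSeq table (TAIR10.1), whose coordinates are not printed. All 84 identifiers matched, and 5 identifiers carry no gene name there and are given as identifiers. As a check of its register, 87.4% of summits lay in genes unshifted, against 77.7% and 77.8% after shifts of 500 bp either way. Shifts of 200 bp gave 89.8% and 89.3%, so smaller offsets are not resolved.

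The members and gene lists were chosen with earlier results of these data known. Values are given for all 9 genes, for at most 4 genes of each other list (those in the most lists of summits), the 5 genes nearest to EMF1 and to VRN1 in score percentiles (0 where a gene has no summit), and neighbours within 500 bp of a summit. Further genes of the other lists are named as having no summit, or in the closing observations, and were picked after their values were seen. No test was run, because the lists hold no replicate values. Depth per library is unknown. Windows of 0 and 1000 bp, scores of at least 5 and 10, assignment to the nearest gene and a background of genes of like length were tried.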

Additional observations from a re-analysis of the deposited data

How the results depend on the processing

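EMF1 stayed in its 4 FACT lists under all 5 alternatives of window, score and assignment. None of these could remove it, since its summits lie inside the gene, score above 10 and have no other protein-coding gene within 500 bp. Of 134 alternative values, 90 stayed within 1.5 times the value reported. These include member counts of 0, which cannot change under stricter settings. With summits inside genes only, members fell to 1 for SPT5 over S5P, 1 for SSRP1 over S5P and 1 for SPT16 over S2P (2 for SPT16 over S5P), 2 members (EMF1 and VRN1) and 6 gene-by-list pairs in place of 5 and 13, the background of SPT5 over S5P to 6.13%, and pairs of PRC2 paralogues and of PRC1 genes to 0 and 2, while the median percentile of member scores became 97.8 in place of 56.8. With 1000 bp, VRN1 gained ELF7 over S2P (1 member) and SSRP1 over S2P (2 members), both at summits inside ETP1. Assignment to the nearest gene left 1 member for SSRP1 over S5P and 2 pairs of PRC1 genes. At scores of at least 5 there remained 1 member for SPT5 over S5P, 1 for SPT16 over S2P, 2 members in any list, 7 pairs (median percentile 98.4), 2 pairs of PRC1 genes and 10 of recruiters, with backgrounds of 0.266% and 6.94% for SPT5, 3.85% and 0.729% for ELF7 over S2P and S5P, 7.71% for SSRP1 and 12.9% for SPT16 over S5P. At scores of at least 10 there were 0 members for SPT5 over S5P, 1 for SSRP1 over S5P, 1 for SPT16 over S2P, 2 members and 5 pairs, pairs of 0, 0, 2, 1 and 5 for paralogues, PRC1 genes, recruiters, antagonists and targets, and backgrounds over S2P and S5P of 0.0328% and 0.488% for SPT5, 0.907% and 0.124% for ELF7, 6.15% and 1.59% for SSRP1 and 5.95% and 2.39% for SPT16. The changes follow from fewer or more summits being counted. No library could be left out. No paired analysis was possible because the lists hold no value per library.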

Other observations

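BLI, TRB1 and TRB2, chosen after their values were seen, carried SPT5 and SPT16 summits over S5P near the same end, in each case the lower-coordinate one. BLI, which encodes a coiled-coil partner of CLF, scored 9.25 for SPT5 over S5P, rank 138 of 2916 and 68 bp beyond an end, and 6.27 for SPT16 over S5P at 97 bp. The telomere repeat-binding factor genes TRB1 and TRB2 scored 6.38 and 3.92 for SPT5 over S5P, 29 and 38 bp inside an end, and 6.97 and 2.82 for SPT16 over S5P at 90 and 70 bp. TRB3 had an SPT5 summit over S5P alone, with a score of 3.67 at 114 bp beyond an end. The VAL genes, which encode B3-domain recruiters of PRC2, were in at most 1 list each: VAL1 (HSI2) scored 4.81 for SPT16 over S5P, VAL3 scored 3.72 for SPT5 over S5P, and VAL2 (HSL1) had none.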
